A study of Homo sapiens with 9 samples.

Results

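Of the 8460 Ago-HITS-CLIP peaks of the miR-342 mimics, 244 are described here. Of the 244, 113 lay in exons that belong to non-coding transcripts only, which include retained-intron transcripts of coding genes. The other 131 lay in stretches of the nuclear genome with no annotated gene on their strand. Peaks placed in introns are a separate class and were not included. A peak entered this set by the position of its midpoint on its own strand, with mitochondrial peaks left out and with windows holding an alternating G/U run of 10 nt or more within 50 nt of the summit left out. The miR-342-3p list held 64 of its 3450 peaks here (37 in non-coding exons and 27 without a gene), which was 1.86% of its nuclear peaks (95% Wilson interval 1.46 to 2.36). The miR-342-5p list held 180 of its 5010 (76 and 104), which was 3.63% of its 4963 nuclear peaks (3.14 to 4.18). The word nuclear means the nuclear genome here, not the place of the RNA in the cell.

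MDA-MB-231HM cells, a highly metastatic variant of the human triple-negative breast cancer line MDA-MB-231, were transfected with a miR-342-3p mimic, a miR-342-5p mimic or a negative control mimic, each at 20 nM for 48 h in 3 replicates (9 libraries). RNA crosslinked to Argonaute was immunoprecipitated and sequenced. Peaks were called by the authors for each mimic over the negative control mimic, with the replicates merged into 1 list per mimic, so both lists share the control libraries and no peak has a value per library, an SD or a known depth. All tests and intervals below therefore cover the counting of peaks only, and the smallest score in the lists was 5.

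Argonaute proteins carry a mature miRNA and are guided to other RNAs by pairing to the miRNA seed, mostly in 3′UTRs. Crosslinking also recovers the miRNA itself, its precursor, and other RNAs held by Argonaute, including long non-coding RNAs (lncRNAs), small structured RNAs and transcripts that run past annotated gene ends. Copies of mitochondrial, ribosomal and viral sequence are scattered through the human genome, and short reads from the parent sequence can be placed on them.

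The mature strands below are from RefSeq, written as RNA with the seed (bases 2 to 8) in capitals, because every site in the results is read from them.
miR-342-3p: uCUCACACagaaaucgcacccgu
miR-342-5p: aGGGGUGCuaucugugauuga
An own site is a match to the seed of the transfected strand in the window of 101 nt around the summit: an 8mer (GUGUGAGA for miR-342-3p and GCACCCCA for miR-342-5p), a 7mer-m8 (GUGUGAG and GCACCCC) or a 7mer-A1 (UGUGAGA and CACCCCA). The letters of a 7mer lie within those of the 8mer, so each window was counted once, under its longest match, and both strands were searched.

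The 8 stretches below show sites in the members that the results turn on, read from GRCh37 on the strand of the peak, with the site in capitals. They are SNHG17 in both lists (chr20:37059710-37059739 and chr20:37063909-37063938, minus), ENSG00000270066 (chr1:109642904-109642933, plus), an unannotated repeat array opposite UCKL1 (chr20:62579925-62579954, plus), GAPDH (chr12:6646491-6646520, plus), MHENCR (chr20:62259412-62259441, plus), the stretch past FOSL1 (chr11:65659148-65659177, minus) and an unannotated peak like the lncRNA ESRG (chr3:104163554-104163583, minus).
SNHG17, miR-342-3p: ccgccccauguGUGUGAGAggcguccucug
ENSG00000270066, miR-342-3p: ggacgcgugaguGUGUGAGugugcgcgcuu
opposite UCKL1, miR-342-3p: ggaggggauguGUGUGAGAgggagggggcg
GAPDH, miR-342-5p: accaacugcuuaGCACCCCuggccaagguc
SNHG17, miR-342-5p: cgcacgccaccGCACCCCAucucucgaaau
MHENCR, miR-342-5p: ucccgcagccgGCACCCCAucccacccaug
past FOSL1, miR-342-5p: acccuguaucaGCACCCCAcccucgcccca
like ESRG, miR-342-5p: cccuuguuucuGCACCCCAaccucuuaucu

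Another set of members resembled the mature strands themselves. They are shown on the strand of the peak, with capitals at bases that differ from the mature strand (bases that are missing from the genome copy are not marked). They lie at chr11:5388107-5388125 (plus), chr13:86126750-86126768 (minus), chr2:128162318-128162336 (minus), chr6:49992833-49992854 (minus), chr1:22918386-22918406 (minus) and, in the miR-342-3p list, chr2:190757131-190757151 (minus).
miR-342-5p, score 258: aggggugcuaucugauuCa
miR-342-5p, score 192: agggCugcuGcugugauug
miR-342-5p, score 153: aggggugcaucuUugauug
miR-342-5p, score 101: aggggGugGuaucugugauuUa
miR-342-5p, score 11: aggggugcuGucugugauGga
miR-342-3p, score 10: ucuacacagaaaCcgcacccg

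The members were mostly peaks of low score with a few very high ones. The median score was 16 for the 64 miR-342-3p members (quartiles 11 and 40.25, range 6 to 6398) and 17 for the 180 miR-342-5p members (11 and 31.25, range 5 to 27731). The medians of all nuclear peaks without a G/U run were 24 and 19. A score above 50 was reached by 13 and 29 members, and one above 100 by 6 and 17, while 3 and 8 members sat at the lowest score of their set, 6 and 5. The top entry of each list was the arm of the MIR342 hairpin that matched the mimic, which scored 38.5 times the next miR-342-3p member and 15.7 times the next miR-342-5p member.

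**Figure D1:**
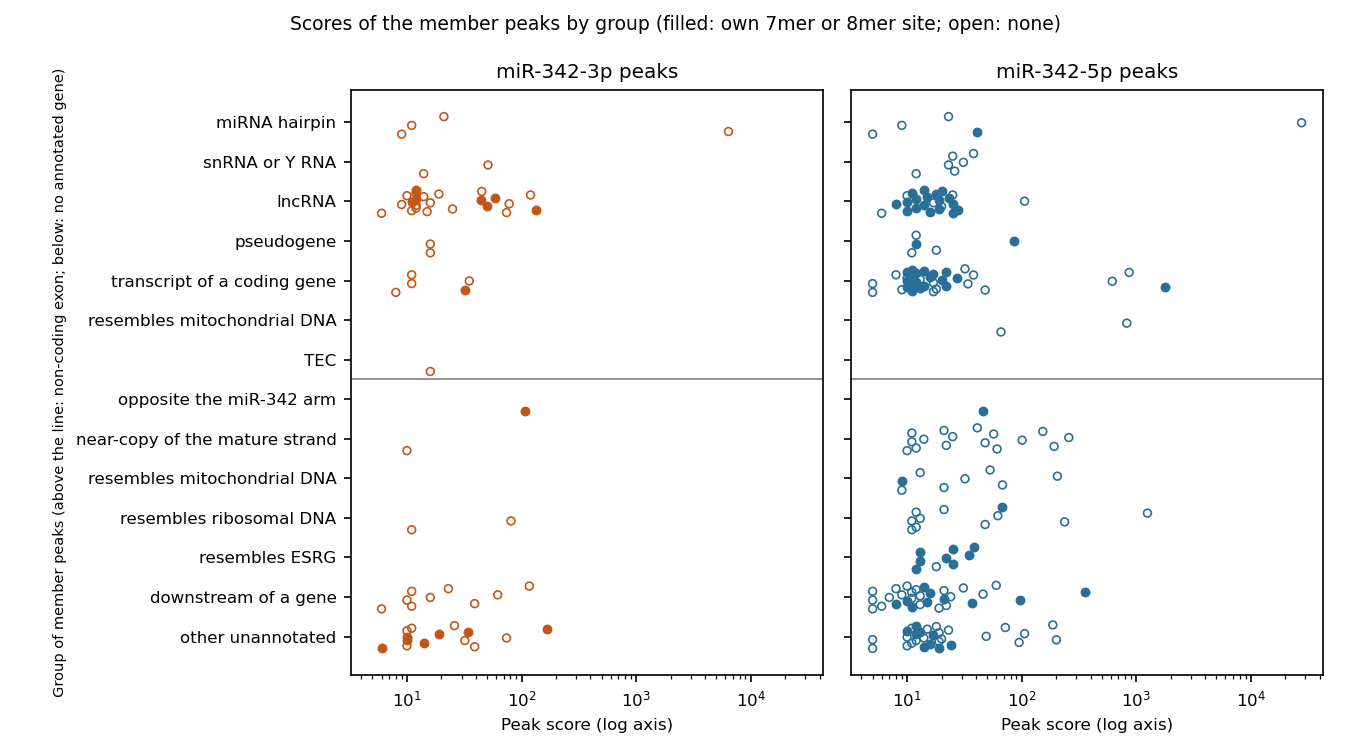
Score of every member peak (log axis) by group, for the miR-342-3p list (left) and the miR-342-5p list (right), with filled points for windows with an own 7mer or 8mer site and open points for the others. The MIR342 arm stood alone at 6398 and 27731, the lncRNA points of the miR-342-5p list were mostly filled (18 of 24), and the near-copies of the mature strand were all open.

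The G/U exclusion removed positions from the miR-342-3p list alone. It left out 82 of 146 positions in that list (56.2%), 14 of 51 in non-coding exons and 68 of 95 without a gene (71.6%), against 437 of all its nuclear peaks (12.7%). None of the 180 positions of the miR-342-5p list was removed, where 9 of 4963 nuclear peaks held such a run (0.181%). Just inside the limit, 3 miR-342-3p members had a run of 9 nt, and just outside it 1 position had a run of 10 nt.

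An own site was found within 50 nt of the summit in 16 of the 64 miR-342-3p members (25%, 95% Wilson interval 16 to 36.8), where 19.5% of the nuclear peaks of the list without a G/U run had one. The opposite strand of the same windows held 1 (1.56%), a difference of 23.4 percentage points (two-sided exact McNemar test, p = 0.00027). For miR-342-5p, 70 of 180 members had an own site (38.9%, 32.1 to 46.2), where 33.3% of the nuclear peaks without such a run had one. The opposite strand held 11 (6.11%), a difference of 32.8 points (exact McNemar test, p = 5.5e-12). Among the members with a score above 50, the strand differences were 23.1 points (13 members, p = 0.38, exact McNemar test) and 6.9 points (29 members, p = 0.73, exact McNemar test), and neither passed the test. Of the 11 opposite-strand matches of miR-342-5p members, 7 lay in near-copies of the mature strand, whose reverse complement holds the site by construction. The same holds for the MIR342 arms on their opposite strand, and for the peaks opposite these arms on the peak strand. A set chosen after the data were seen left out members that resembled a mature miRNA, mitochondrial or ribosomal DNA or a small RNA gene. Members like ESRG, described below, stayed in this set. In it the 2 strands held 15 and 0 of 54 for miR-342-3p, and 66 and 3 of 131 for miR-342-5p. The near-copies and the MIR342 arms were among those left out, so the lower opposite-strand counts follow in part from the choice itself. Over all members, an 8mer was present in 8 and 29 windows, more than 1 site in 4 and 10, and a site of the other miR-342 strand in 2 and 1.

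Against peaks in messenger RNAs of the same list, with the same G/U exclusion, 1 of 4 differences in site share passed the test, that of miR-342-5p members over coding exon peaks. The miR-342-3p share was 1.58 points above the 215 of 918 3′UTR peaks (23.4%, interval of the difference −7.85 to 13.7) and 8.69 points above the 309 of 1895 coding exon peaks (16.3%, −0.456 to 20.6), and neither difference passed two-sided Fisher's exact test (adjusted p = 0.762 and 0.17, Benjamini-Hochberg over 4 comparisons). The miR-342-5p share was 4.08 points below the 373 of 868 3′UTR peaks (43%, interval −11.7 to 3.89, adjusted p = 0.428) and 11.3 points above the 967 of 3504 coding exon peaks (27.6%, interval 4.31 to 18.7, odds ratio 1.67, adjusted p = 0.00633 by Fisher's exact test). With exons of basic transcripts only, a definition added after the data were seen, the last difference was 6.89 points and no longer passed (Fisher's exact test, adjusted p = 0.099). Among peaks with a score above 50 it ran the other way, at −22.2 points (Fisher's exact test, adjusted p = 0.036).

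**Figure D2:**
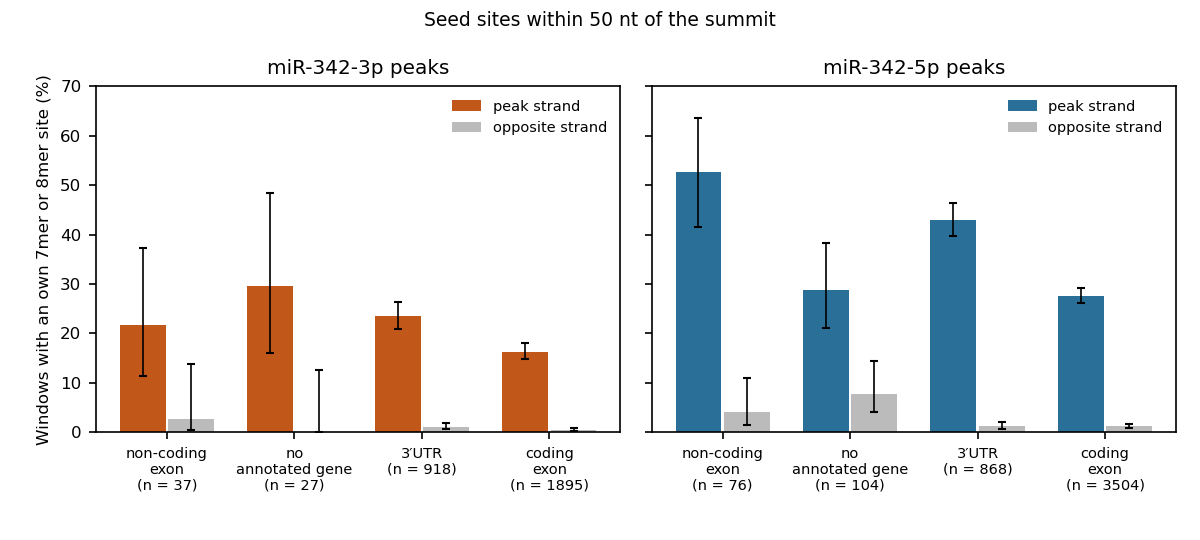
Share of windows with an own 7mer or 8mer site (%) on the peak strand (coloured bars) and on the opposite strand (grey bars), for members in non-coding exons, members with no annotated gene, 3′UTR peaks and coding exon peaks of each list. Error bars are 95% Wilson intervals, n is the number of peaks, and the highest share, 52.6%, was that of miR-342-5p members in non-coding exons.

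The sites were unevenly spread over the kinds of member. In the miR-342-5p list, 40 of 76 non-coding exon members (52.6%, interval 41.6 to 63.5) and 30 of 104 unannotated members (28.8%, 21 to 38.2) had an own site. In the miR-342-3p list these were 8 of 37 (21.6%) and 8 of 27 (29.6%). Width moved with this in the miR-342-5p list: 67 of 136 members wider than 30 nt had a site (49.3%), against 3 of the 44 that were 30 nt or narrower (6.82%). The miR-342-3p members went the other way, with 11 of 49 (22.4%, interval 13 to 35.9) and 5 of 15 (33.3%, 15.2 to 58.3). Neither difference by width was tested. The 44 narrow miR-342-5p members included 16 near-copies of the mature strand, of which 0 had a site. The 5 narrow miR-342-3p members with a site included the peak opposite the MIR342 arm, whose site is there by construction. The 28 sites of miR-342-3p members lay within 10 nt of the summit in 57.1% of cases and the 82 sites of miR-342-5p members in 73.2%, where the shares for 3′UTR sites were 72.1% and 74.6%. The 28 count some sites more than once, because 3 members on the array opposite UCKL1 (9 own sites, described below) have overlapping windows. The share without that array was not computed.

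MiRNA hairpins gave 4 miR-342-3p and 5 miR-342-5p members, and their peaks were short. The miR-342-3p arm of MIR342 (chr14:100576047-100576078, plus, 32 nt) scored 6398, and the miR-342-5p arm (chr14:100576003-100576034, plus, 32 nt) scored 27731. Each arm also had a peak on the opposite strand of the genome, where no gene is annotated, at a score of 107 (chr14:100576049-100576073, 25 nt, 1.67% of the arm's score) and 46 (chr14:100576008-100576029, 22 nt, 0.166%). Their own sites are the complement of the mature strand by construction. Neither arm was called in the list of the other mimic.

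The remaining hairpin peaks were low. Let-7d-5p, a member of the let-7 family, had a score of 21 in the miR-342-3p list, and MIR425 a score of 23 in the miR-342-5p list. The MIR425 peak covered the whole of miR-425-3p, but its summit lay at the edge of the peak, outside that mature strand. The miR-106b-3p arm of MIR106B and miR-18a-3p of the MIR17HG cluster transcript, which come from paralogous miRNA clusters, were the members that overlapped a peak of the other list: MIR106B scored 11 and 9 (miR-342-3p first), and MIR17HG 9 and 5. That was 2 of 64 members (3.12%) and 2 of 180 (1.11%). MIR4284 scored 41 with a 7mer-A1, over 25 nt that also matched mitochondrial DNA with 2 edits.

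Long non-coding RNAs differed between the lists in how many members held a site, a difference that was not tested. In the miR-342-5p list, 18 of 24 lncRNA members had an own site (75%, interval 55.1 to 88) at a median score of 16.5, and in the miR-342-3p list 7 of 23 (30.4%) at a median of 15. They covered 17 and 15 gene records. None of them was 30 nt or narrower.

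SNHG17, a host gene of small nucleolar RNAs, had members with sites for both mimics at different positions. Its miR-342-3p peak (chr20:37059703-37059755, minus) scored 59 with the 8mer shown above, and its miR-342-5p peaks scored 28 with an 8mer (chr20:37063851-37064016) and 16 with a 7mer-m8 (chr20:37063100-37063217). SNHG32, another such host, scored 44 with a 7mer-m8 at the summit in the miR-342-3p list. Of 33 listed snoRNA host genes, SNHG17 and SNHG32 held a miR-342-3p member and SNHG17 alone a miR-342-5p member, and all 4 peaks had a site.

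The top lncRNA of the miR-342-3p list was ENSG00000270066 (chr1:109642807-109642980, plus), with a score of 135 and 3 own 7mer or 8mer sites in its window. OIP5-AS1, an abundant cytoplasmic lncRNA, scored 74 without a match of any length. NEAT1, the scaffold of paraspeckles, had 7 miR-342-3p members (120, 78, 50, 14, 12, 11 and 6), of which the one at 50 held an 8mer, and miR-342-5p members of 23 and 10, both with a 7mer-A1. MALAT1 had 1 miR-342-5p member at 106 with a 6mer alone. The other listed nuclear lncRNAs, of 9 in all, held no member.

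MHENCR, a lncRNA named for its expression in melanoma, carried several miR-342-5p sites in each of its peaks. Its 4 members (chr20:62258688-62259535, plus) scored 25, 15, 14 and 8 and held 2, 2, 3 and 3 sites in their windows. The whole span of the 4 peaks with 50 nt on each side, 948 nt with the gaps between peaks, held 16 own sites. Of these 1 was an 8mer, and the opposite strand held 0.

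MIR100HG, the host transcript of miR-100, let-7a-2 and miR-125b-1, had 3 miR-342-5p members (25, 20 and 10), of which the lowest held a 7mer-A1. CHASERR, a lncRNA upstream of CHD2, scored 25 with a 7mer-m8 at 1 nt from the summit. LINC02693 and ADAMTSL4-AS2 scored 20 and 19, each with an 8mer. Of 14 listed cytoplasmic or miRNA-linked lncRNAs (13 in the annotation), 2 held a member in each list, MIR17HG and OIP5-AS1 for miR-342-3p and MIR17HG and MIR100HG for miR-342-5p, and 1 of these 6 peaks had a site.

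Small structured RNAs had peaks without own sites. Y RNA copies, relatives of the Ro-bound Y RNAs, gave 6 miR-342-5p members with scores of 38, 31, 26, 25, 23 and 12, and those at 38 and 23 lay within ZNF436-AS1. Variant U1 small nuclear RNA genes gave the miR-342-3p members RNVU1-14 (51) and RNVU1-15 (14). No member lay of either list in the 8 annotated genes of the list of small non-coding RNAs such as 7SK, 7SL and vault RNAs.

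Pseudogenes gave 2 miR-342-3p members, both at a score of 16 in EEF1GP3, and 5 miR-342-5p members with scores from 11 to 86. The highest, RP11-640M9.2 (chr1:144621529-144621583, plus), held a 7mer-m8 at the summit, and the 31 nt around its summit occur 3 times in the genome. GAPDHP33 scored 12 and HSP90AA4P 18. Across all members, the 31 nt around the summit were found more than once in 6 of 64 and 9 of 180.

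Non-coding transcripts of protein-coding genes were the largest kind of exon in the miR-342-5p list, with 34 members in 31 genes. Of these members, 26 had their midpoint in an exon of a retained-intron transcript. An own site was present in 19 of the 34 (55.9%), and 15 of the 31 genes held another peak of the list outside the members. The miR-342-3p list had 5 such members in 4 genes, of which PLXNA3, a semaphorin receptor gene, had a site (score 32, 8mer).

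GAPDH, the glycolytic enzyme gene, had the highest such peak. Adjacent peaks whose midpoints fell in an exon of a retained-intron transcript scored 1765 (chr12:6646465-6646652, plus, with the 7mer-m8 shown above) and 618 (chr12:6646358-6646447, no match). The site of the first lay towards the start of the peak, away from the midpoint. The member was classed by its midpoint and the site itself was not placed, so the site may lie in a coding exon. With peaks placed by their summit instead, the miR-342-5p members numbered 169. The 31 nt around the summit of the first peak occur 2 times in the genome. The 3 other GAPDH peaks of the list reached 364. CCN1, which encodes a secreted matricellular protein, scored 867 without a match (chr1:86046666-86046849, plus), beside 1 other peak in the gene at 396.

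The other members of this kind were lower. MMP14, a membrane-bound metalloproteinase gene, scored 48, the Ran GTPase gene RAN 32 and TSPYL2 34, all without a match. Those with an 8mer included FLOT1 (27), CARS2 (22), PCID2 (22) and PDCD6 (20). SERTAD2 had 3 members (18, 5 and 5), and none of them held a 7mer or 8mer site.

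Some members without a gene on their strand lay near gene ends, and no background share was measured for comparison. Of the 27 miR-342-3p and 104 miR-342-5p peaks, 9 (33.3%) and 43 (41.3%) were within 5 kb past the annotated end of a gene on the same strand. Peaks of 1 locus were counted singly, and 15 of the 43 lay past FOSL1 alone. The opposite strand held no gene in 12 and 45, an intron in 10 and 28, a coding exon in 1 and 12, a 3′UTR in 3 and 7 and a non-coding exon in 1 and 11. After peaks that resembled other sequences, including ESRG, had been set apart, 9 and 30 of them were left past a gene end. Of these, 0 and 10 had an own site.

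FOSL1, which encodes the AP-1 transcription factor FRA1, had the largest cluster. The miR-342-5p list held 15 members between 82 and 1940 nt past its annotated end (chr11:65659520, minus strand), at scores from 6 to 357. The highest (chr11:65658971-65659210, 430 nt past the end) held the 8mer shown above 2 nt from its summit, and its neighbour at 96 (chr11:65659212-65659309) held a 7mer-A1. The other 13 had no 7mer or 8mer site, with scores of 60, 46, 31, 24, 22, 19, 13, 13, 12, 9, 8, 7 and 6. Some of these lay opposite CCDC85B. FOSL1 itself had 10 miR-342-5p peaks (highest score 293) and 0 miR-342-3p peaks.

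**Figure D3:**
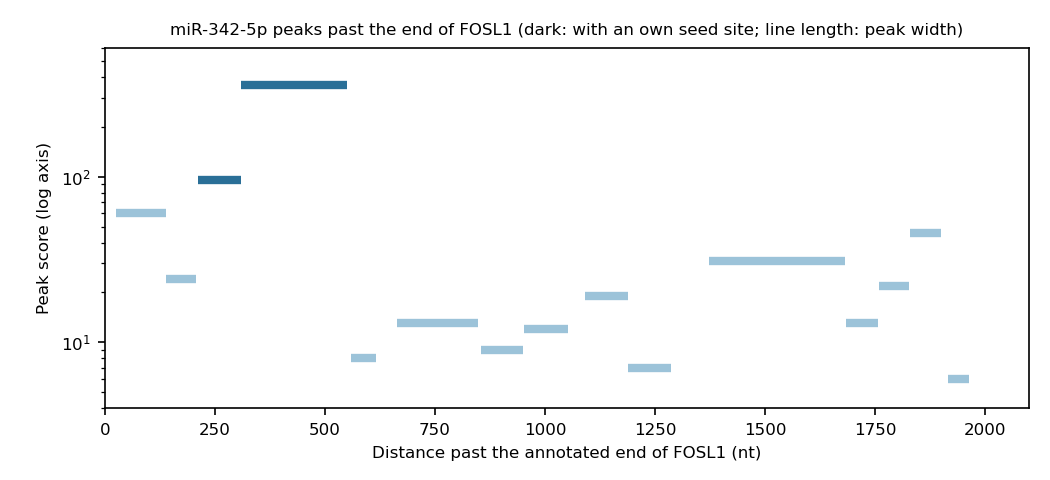
MiR-342-5p peaks past the annotated end of FOSL1, with distance past the end on the x axis (nt) and score on the y axis (log axis), each line as long as its peak and dark where an own site was present. The peaks with a site, at 357 and 96, lay 430 and 260 nt past the end, and the others ran on to 1940 nt at scores of 60 or less.

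Other genes had fewer peaks past their ends. VPS9D1-AS1, an antisense lncRNA, had 3 miR-342-5p members past its end (37 with a 7mer-m8, 11, and 8 with a 7mer-A1) and 1 inside the gene at 6. NDUFAF3, a complex I assembly factor gene, had 3 (21, 10 with an 8mer, and 5), opposite an IMPDH2 exon. TNFRSF12A, the TWEAK receptor gene, had 2 (15 with an 8mer, and 5), ADAM8 had 2 (11 and 5), TPT1 had 1 at 14 with an 8mer and DCP2, the decapping enzyme gene, 1 at 11 with an 8mer.

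In the miR-342-3p list the highest was 243 nt past VAV3, with a score of 117. IGFBP4 had 2 (10 and 6) and CAPG 1 (23). None of the 9 miR-342-3p members past a gene end held an own site.

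A group of miR-342-5p members resembled ESRG, a lncRNA of 7736 nt that derives from a HERV-H endogenous retrovirus. Of the 4954 windows of that list, 10 lay within 23 edits of ESRG over 101 nt, and the next window needed 37. All 10 were members. The lowest count was 36 when the opposite strand was read, and no miR-342-3p window came closer than 37 on its own strand. Scores ran from 10 to 38, and 8 of the 10 had an own site, 3 of them an 8mer.

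The highest of these was at chr3:104163454-104163616 (minus, score 38, 12 edits), next to a second 8mer peak at chr3:104163370-104163452 (25, 14 edits). Another 3 lay on chromosome X opposite a non-coding exon, at chrX:73025524-73025598 (35, 12 edits), chrX:73025282-73025342 (25, 11 edits) and chrX:73025474-73025522 (13, 11 edits). The ESRG peak itself scored 10 without a match, and the 31 nt around its summit occur 273 times in the genome. Such counts were 153, 65 and 161 for the peaks at chrX:73025282, chrX:73025474 and chr13:109921747, so these copies cannot be told apart by those letters.

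**Figure D4:**
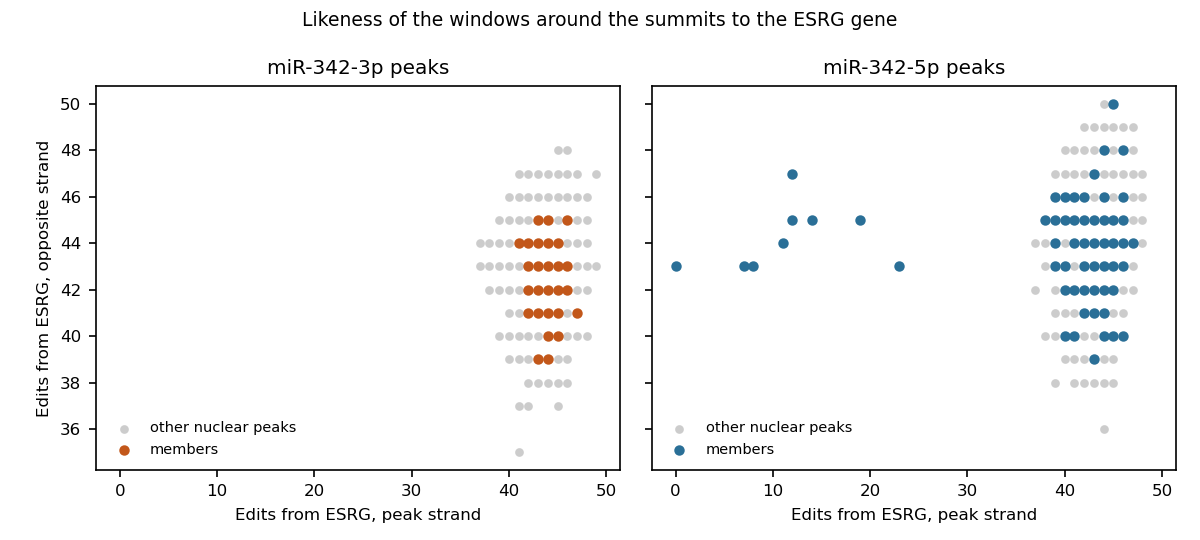
Edits between each 101-nt window without a G/U run and its closest stretch of ESRG, on the peak strand (x axis) and on the opposite strand (y axis), for members (coloured) and other nuclear peaks (grey) of each list. The 10 miR-342-5p members with 23 edits or fewer stand apart from the rest, which begin at 37 edits in both lists.

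Near-copies of the transfected strand were a feature of the miR-342-5p list. Besides MIR342, the mature strand lay within 4 edits of 16 miR-342-5p members and 1 miR-342-3p member, where 0.444% and 0.0664% of the nuclear peaks without a G/U run were that close, MIR342 included. The 16 were 19 to 26 nt wide, scored from 10 to 258 (median 33), lay on 10 chromosomes and included no exact copy: 1 needed 2 edits, 12 needed 3 and 3 needed 4. Bases 1 to 8 of the mature strand were intact in 7 of them, bases 13 to 20 in 8. The exact mature strand occurs 1 time in the genome for each mimic.

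The highest near-copy (chr11:5388106-5388126, plus, score 258) lay opposite introns of the beta-globin region, and the next, at 192 (chr13:86126747-86126769, minus), had no gene on either strand. In all, 6 of the 16 had no gene on the opposite strand and 8 lay opposite an intron. The miR-342-3p near-copy, at chr2:190757129, scored 10. Whether these reads came from the genomic copies or from the transfected strands was not tested.

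**Figure D5:**
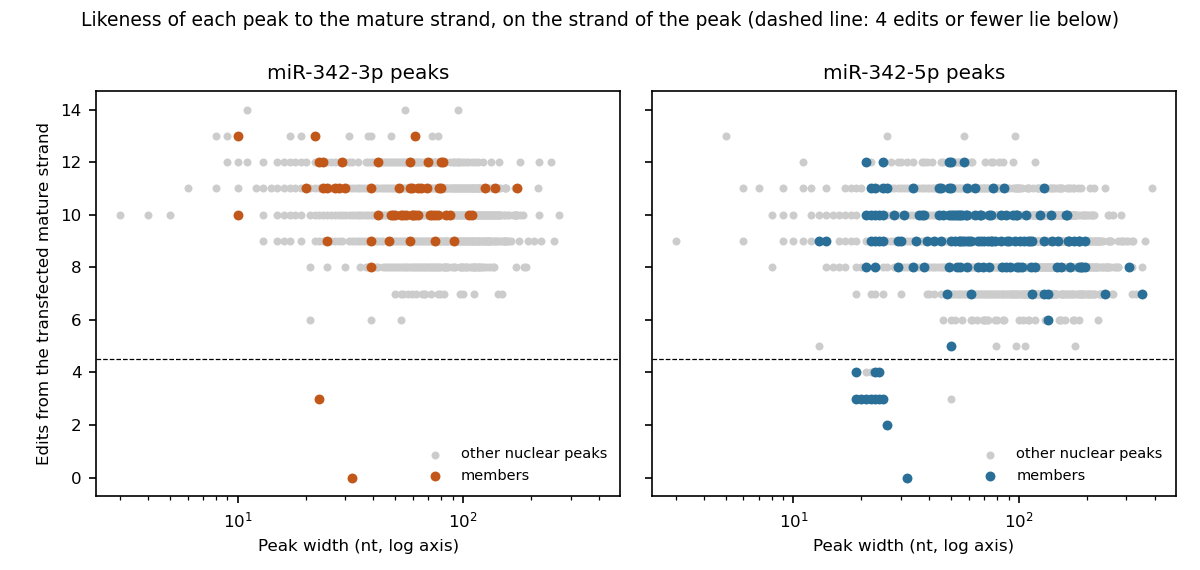
Edits between each nuclear peak without a G/U run and the transfected mature strand on the strand of the peak (y axis) against peak width (x axis, nt, log axis), for members (coloured) and other nuclear peaks (grey). Below the dashed line, the miR-342-5p list holds MIR342 and a set of peaks that are nearly all 30 nt or narrower, and the miR-342-3p list holds MIR342 and 1 other peak.

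Narrow peaks were common among the members in general. A width of 30 nt or less was found for 15 of 64 miR-342-3p members (23.4%) and 44 of 180 miR-342-5p members (24.4%), where 7.63% and 5.17% of the nuclear peaks without a G/U run were that narrow. Unannotated members accounted for 10 and 37 of them. In all, 7 of the 15 and 31 of the 44 resembled a mature miRNA, mitochondrial or ribosomal DNA or a small RNA gene. Without members that resembled these, a set chosen after the data were seen, 15 of 54 and 66 of 131 had an own site. The miR-342-5p members like ESRG, 8 of 10 with a site, stayed in this set. These shares were 4.36 and 7.41 points above the 3′UTR shares, and neither difference passed (Fisher's exact test, adjusted p = 0.51 and 0.17). Most of the members set aside held no site and the 3′UTR peaks were not filtered this way, so the choice itself raised the member shares.

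Mitochondrial likeness was seen in the miR-342-5p list alone, for 11 of 180 members against 0 of 64, while 1 member of each list came as close when its opposite strand was read. The highest was ENSG00000289474 (chr2:149639294-149639387, minus, score 827), which differed from MT-RNR1, the small mitochondrial ribosomal RNA, by 1 edit over 51 nt. A cluster of 5 past RNF141 on chromosome 11 (205, 68, 53, 13 and 9) matched MT-RNR2, the large one, with 0 to 5 edits, and MTCO1P12 (66) matched MT-CO1 with 2. The mitochondrial genome itself held 47 miR-342-5p and 0 miR-342-3p peaks.

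Ribosomal likeness was measured against the 45S repeat on an unplaced contig (GL000220.1), and was found for 2 miR-342-3p and 11 miR-342-5p members. The miR-342-5p peaks at chr2:133039135-133039168 (1253), chr2:133039170-133039218 (237) and chr2:133039081-133039132 (48) formed a cluster on the minus strand, with 4 edits each. The others scored 68 or less, and the one at 68 (chr1:7181869-7181896) held a 7mer-m8. The miR-342-3p pair at chr4:70296656-70296684 (81) and chr4:70296615-70296642 (11) had 2 edits each. None of the 244 members resembled the opposite strand of the repeat.

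The remaining unannotated members resembled none of these and lay past no gene end: 14 in the miR-342-3p list, 7 of them with an own site, and 29 in the miR-342-5p list, 9 with a site. The highest miR-342-3p peak of this kind (chr17:21126072-21126098, minus, 27 nt, opposite an intron of TMEM11-DT) scored 166 with a 7mer-m8 4 nt from the summit. A peak at chr14:105282579-105282641 scored 74 without a match, and peaks at chr11:66886285-66886361 (34, 7mer-m8) and chr18:69845289-69845311 (14, 8mer) held a site.

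Opposite an intron of UCKL1, 3 miR-342-3p members (chr20:62579905-62580055, plus) lay on an array of the site shown above. They scored only 19, 10 and 6, while their windows held 4, 4 and 5 own 8mer sites about 20 nt apart. The 251 nt around them held 9 own sites, 8 of them 8mers, and 0 on the opposite strand.

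A miR-342-5p cluster at chr14:105508516 had 3 members (24 with an 8mer, 5 and 5). The highest miR-342-5p peaks without a resemblance had no own site, at chr8:50383277-50383299 (201, plus, 23 nt), chr20:7813021-7813043 (187, plus, 23 nt) and chr1:42922310-42922359 (106, minus, 50 nt). The last lay opposite a coding exon of PPCS, a coenzyme A synthesis gene. Over all clusters within 1 kb, 17 of 64 and 60 of 180 members had a neighbour, and the largest cluster was that of FOSL1.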

How the data were processed

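Ago-HITS-CLIP libraries of cells given either miR-342 mimic or the negative control (3 replicates each) had been mapped to hg19 and their peaks called for each mimic over the control by the authors, with replicates merged and strands called apart. The submitters' processing notes name cutadapt 1.13, TopHat2 2.0.13, UMI-tools and MACS2 2.1.1.20160309. The deposited score of a peak counts reads above background, according to the study's methods, and its scaling between libraries is not given in the sources used here. The score and the summit position were used as deposited. Single libraries were not analysed here, so their depth is unknown, and intervals cover the counting of peaks only.

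To find the members, peak midpoints were placed on GENCODE release 44 mapped to GRCh37, over all its transcripts. Classes were taken in the order 3′UTR, coding exon, 5′UTR, non-coding exon, intron and no gene. The 3′UTR and coding exon peaks compared with the members were placed on its basic protein-coding transcripts alone. Seed sites were searched within 50 nt of the summit. Near-copies of the mature strand had at most 4 edits within the peak and 10 nt on each side, and likeness to mitochondrial or ribosomal DNA meant edits in at most 15% of up to 51 nt around the summit. Python 3.11.15, numpy 2.4.6, scipy 1.17.1, statsmodels 0.14.6, pysam 0.24.0, edlib 1.3.9.post1 and matplotlib 3.10.9 were used, and the scripts were tested on simulated data. Named members were, per list, the 10 of highest score, the 10 of highest score with an own site, clusters within 1 kb of 3 or more, small RNA genes, overlaps between lists and the listed non-coding RNAs; others are given as examples chosen after their values were seen. The members and lists were chosen with earlier results of these data known. Alternatives changed the window, the site types, the score minimum, the G/U exclusion, the strand rule for unannotated peaks, the annotation and the peaks counted.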

Additional observations from a re-analysis of the deposited data

How the results depend on the processing

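No paired analysis was possible because the replicates are merged in both lists, and for the same reason no replicate could be left out. The miR-342-3p members numbered 146 without the G/U exclusion, 13 above a score of 50 and 6 above 100, and the miR-342-5p members 29 and 17. Within 1 kb past a gene end lay 11.1% and 10.6% of the unannotated peaks. The excess of own sites over the opposite strand no longer passed above a score of 50 (23.1 points in the miR-342-3p list, 6.9 in the other) or 100 (33.3 and −5.88, the latter in the other direction), where few peaks were left. The miR-342-3p difference from 3′UTR peaks turned to −3.76 without the G/U exclusion, −2.24 over the whole peak and −3.01 with unannotated peaks limited to those with no gene on either strand. The miR-342-5p difference from 3′UTR peaks was −14.1 with 6mers, −39.1 above a score of 50 and −43.8 above 100, all past the threshold. It turned to 4.71 with 8mers alone, not past the threshold. It was 7.41, also not past it, without members like a mature miRNA, mitochondrial or ribosomal DNA or a small RNA gene. That set was chosen after the data were seen and kept the members like ESRG. Against coding exon peaks, the miR-342-3p difference was 7.12 with 8mers alone and passed, and the miR-342-5p difference was 4.55 with 6mers and 6.89 with basic transcripts only (also chosen after the data were seen), no longer past the threshold, and −22.2 and −30.3 above scores of 50 and 100. The cause of these changes was not tested. The other 96 alternative values kept their direction and side of the threshold, or their size.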
